A study of Homo sapiens with 2 samples.

Results

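Gamma-synuclein, the product of SNCG, was examined together with the adjacent gene MMRN2 and the paralogue SNCB in 2 RNA libraries of T47D cells. T47D is an established line of luminal breast carcinoma, positive for the estrogen and the progesterone receptor. These 3 genes were taken by name from the 25240 genes of the deposited transcript tables, where they hold 4 transcripts, and were chosen because earlier results from these tables showed SNCG to differ. The values that chose them are therefore given as a description. T47D cells of the first library (shNT) carried a non-targeting hairpin and are described as RON proficient. Those of the second (shRON) carried a hairpin targeting RON and are described as a RON knockdown. RON is a receptor tyrosine kinase, the product of MST1R. Both cell populations were selected in 5 ug/mL puromycin, maintained in 1 ug/mL and grown in high-glucose DMEM with 10% serum. Each group has 1 library, so no difference has a replicate check, no p-value is given, and every statement below describes these 2 libraries. The control table is named for wild-type cells, but groups were taken from the labels.

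Synucleins are small, soluble proteins that fold into a helix on curved membranes and are best known from nerve terminals, where they associate with synaptic vesicles and the SNARE fusion machinery. SNCG is abundant in peripheral and some central neurons and was also described as a gene expressed in advanced breast carcinoma, under the name breast cancer-specific gene. SNCB encodes beta-synuclein, a mainly neuronal relative. MMRN2 encodes multimerin-2, an extracellular matrix glycoprotein of the EMILIN family that is normally made by endothelial cells and binds the receptors CD93 and CLEC14A.

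SNCG lies on the plus strand of chromosome 10 at chr10:88718288-88723017 (hg19, as the tables give it). The listed MMRN2 transcript lies on the minus strand at chr10:88695297-88717425. By this transcript both genes are transcribed away from one another, with 862 bases between their starts. In the GENCODE annotation lifted to GRCh37, MMRN2 extends to 88729238, beyond SNCG. The MMRN2 window below therefore belongs to the start of the listed transcript only. C10orf116, now named ADIRF (adipogenesis regulatory factor), starts 5170 bases beyond the end of SNCG and runs on the plus strand at chr10:88728188-88730666. These 3 starts are shown because the genes moved together in the comparison below. Each sequence is the 250 bases before the transcript start of the tables, read from GRCh37 on the strand of the gene, 5′ to 3′, with CpG dinucleotides in capitals. They stand at chr10:88718038-88718287 for SNCG, chr10:88717426-88717675 for MMRN2 and chr10:88727938-88728187 for C10orf116, the last overlapping an exon of the noncoding gene LOC100133190.
SNCG: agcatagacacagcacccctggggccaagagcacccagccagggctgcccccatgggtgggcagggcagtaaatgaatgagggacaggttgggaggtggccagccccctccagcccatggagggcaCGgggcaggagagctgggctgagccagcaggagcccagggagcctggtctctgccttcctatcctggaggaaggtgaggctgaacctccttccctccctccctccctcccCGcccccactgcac
MMRN2: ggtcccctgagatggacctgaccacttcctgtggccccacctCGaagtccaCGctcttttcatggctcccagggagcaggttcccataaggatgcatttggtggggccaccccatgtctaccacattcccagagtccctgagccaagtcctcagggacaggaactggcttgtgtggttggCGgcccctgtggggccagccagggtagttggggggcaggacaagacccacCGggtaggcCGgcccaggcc
C10orf116: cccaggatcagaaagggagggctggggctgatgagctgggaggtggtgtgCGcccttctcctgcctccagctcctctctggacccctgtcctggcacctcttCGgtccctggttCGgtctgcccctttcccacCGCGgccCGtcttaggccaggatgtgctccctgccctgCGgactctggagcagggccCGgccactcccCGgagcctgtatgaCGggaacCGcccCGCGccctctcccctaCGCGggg

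The SNCG window held 2 CpGs, that of MMRN2 held 5 and that of C10orf116 held 15. Among 34788 windows of the same length before RefSeq gene starts (GRCh38.p14), the median was 11 and the quartiles were 3 and 23. Fewer CpGs than before SNCG were found in 14.7% of those windows, fewer than before MMRN2 in 34.5%, and fewer than before C10orf116 in 57.1%. The corresponding window before SNCB, which also covers part of an exon of the neighbouring gene EIF4E1B and is not printed, held 24. All were rich in G and C, at 67.2% for SNCG, 63.6% for MMRN2 and 69.6% for C10orf116. Of the motifs searched on both strands, the palindromic estrogen response element (GGTCANNNTGACC) was in none of the 3 windows and in 0.0402% of all windows. One arm of it, GGTCA, occurred once before MMRN2, and in 32.6% of all windows. A GC box (GGGCGG) occurred once before SNCG and once before C10orf116, and in 42.6% of all windows. The AP-1 motif TGANTCA, the E-box CACGTG, the TATA box TATAAA and the CCAAT box were in none of the 3, against 6.59%, 6.31%, 10.8% and 32.0% of all windows. A match or its absence describes the letters of these windows only.

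Sequencing depth, estimated in fragments, was 11883300 for shNT and 11507600 for shRON. FPKM, the deposited unit, counts fragments per length of transcript and size of library, so levels can be compared between genes. Genes reaching 1 FPKM in at least 1 library were kept (12484 genes). The log2 ratio sets shRON against shNT after 1 FPKM was added to each, which understates changes of low genes. The median of all 12484 log2 ratios was 0.04. By a rule of 2-fold on this scale, 271 genes (2.17%) were lower and 415 (3.32%) higher in shRON. Intervals are approximate 95% Clopper-Pearson intervals on estimated fragments and cover counting error only. MST1R, the target of the hairpin, was lower in the shRON library (9.10 FPKM) than in shNT (12.1), a ratio of 0.749 (counting interval 0.675 to 0.832). All 9 luminal epithelial markers checked were expressed in both libraries, from ESR1 (36.7 FPKM in shNT, 23.7 in shRON) to KRT8 (3839 and 2634). Their median log2 ratio was -0.40, and 3 of the 9 were at least 1.5-fold lower in shRON, against 8.84% of all genes: ESR1 (-0.61), CDH1, which encodes E-cadherin (163 and 100 FPKM, -0.70), and PGR, the progesterone receptor gene (76.7 and 35.1 FPKM, -1.11). PGR was past 2-fold, and 0 of the 9 were higher by 1.5-fold, against 9.95%. ESR1 was at -0.52, short of 1.5-fold, with its most abundant transcript only. By sign, 6 of the 9 were below 0 and 3 above it: GATA3 (0.27), EPCAM (0.05) and FOXA1 (0.01). The part of these differences in the values of SNCG was not tested.

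SNCG was the most abundant of the 3 genes in both libraries. Its level was 114 FPKM in shNT and 13.7 FPKM in shRON, from an estimated 1413 and 168 fragments. The shRON level was thus 8.31-fold lower, with a ratio of FPKM of 0.120 (counting interval 0.102 to 0.141) and a log2 ratio of -2.97. SNCG was the 532nd most abundant gene in shNT and the 4853rd in shRON. Its log2 ratio was the sixth lowest of all 12484 (24th with a pseudocount of 0.1 FPKM). Of the 626 genes at 100 FPKM or more in shNT only 2 had a lower one. The counting intervals of the levels did not overlap, at 108 to 120 FPKM in shNT and 11.7 to 16.0 in shRON. The tables hold 1 SNCG transcript of 826 bases (NM_003087.2), with the status OK in both libraries, so its value involves no division of reads among listed isoforms. In bulk RNA, fewer cells with a transcript and less of it per cell cannot be told apart.

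**Figure D1:**
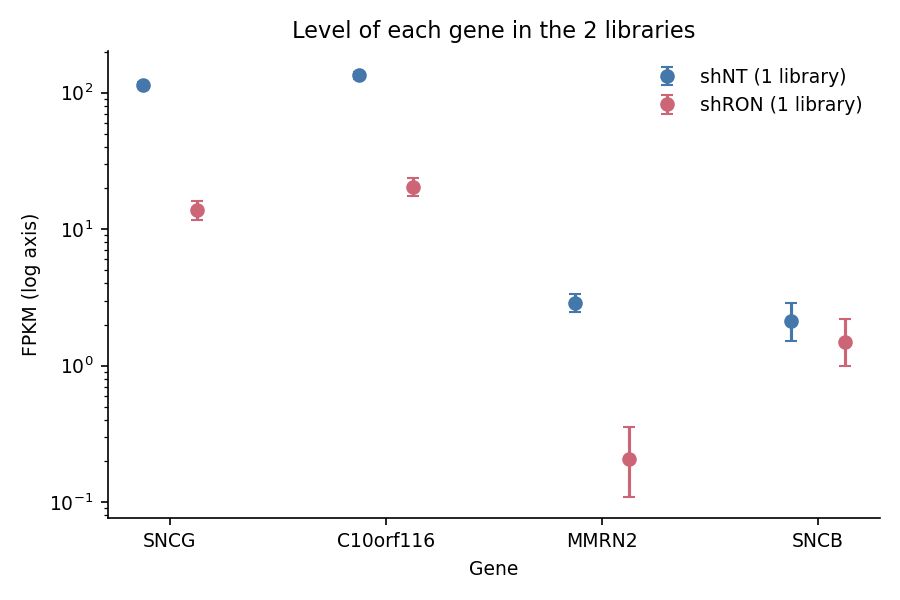
FPKM on a log axis for SNCG, C10orf116, MMRN2 and SNCB in the shNT (blue) and shRON (red) libraries; each point is 1 library and bars are 95% Poisson counting intervals on estimated fragments. SNCG, C10orf116 and MMRN2 have intervals that are far apart between the libraries, while those of SNCB (1.51 to 2.87 and 0.990 to 2.19 FPKM) overlap.

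MMRN2, by its listed transcript the head-to-head neighbour of SNCG, was also lower, from a low starting level. Its level was 2.87 FPKM in the control and 0.206 in the knockdown library, from an estimated 176 and 13 fragments. This was a 13.9-fold lower level, with a ratio of 0.0719 whose counting interval of 0.0376 to 0.126 overlapped that of SNCG. On the FPKM + 1 scale the log2 ratio was -1.68, the 42nd lowest. Because MMRN2 is low, that value depends on the pseudocount: it was -3.28 with 0.1 FPKM and -0.60, short of 2-fold, with 5 FPKM. MMRN2 passed the filter of 1 FPKM only through shNT, so it could only have been counted as lower. SNCG was 39.7 times as abundant as MMRN2 in shNT and 66.5 times in shRON. In the GENCODE annotation lifted to GRCh37, the MMRN2 gene extends to position 88729238 and so spans SNCG on the opposite strand, while their exons share no bases. The sources used here do not say whether strand was kept in the libraries.

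The gene on the other side of SNCG was also lower. C10orf116, which encodes a small nuclear protein that promotes fat cell differentiation, had 134 FPKM in shNT against 20.5 in shRON, from an estimated 1197 and 183 fragments. The ratio was 0.153, the log2 ratio was -2.65, and this was the ninth lowest of all genes (42nd with a pseudocount of 0.1 FPKM). The counting interval of the ratio, 0.130 to 0.179, overlapped that of SNCG but did not include the SNCG ratio of 0.120. C10orf116 was slightly more abundant than SNCG in both libraries, by 1.17 times in shNT and 1.49 times in shRON. MMRN2, SNCG and C10orf116 thus span 10q from 88695297 to 88730666 and were each at least 6.53-fold lower in FPKM. LOC100133190 (ADIRF-AS1), a noncoding gene on the opposite strand, was at 5.55 and 3.0 FPKM, a log2 ratio of -0.71. In GENCODE its exons share 677 bases with those of C10orf116 and 440 with those of MMRN2. The listed MMRN2 transcript ends at 88717425, short of the listed LOC100133190 transcript at 88725498 to 88731068. AGAP11, whose transcript overlaps the end of C10orf116, was at 1.28 and 0.271 FPKM, with a ratio of 0.212 from an estimated 54 and 11 fragments. Reads of overlapping genes may have been divided among them, so the values of C10orf116, LOC100133190 and AGAP11 are uncertain.

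Beyond these genes the differences were smaller. BMPR1A, a BMP receptor gene on the far side of MMRN2, was at 17.1 and 11.3 FPKM (log2 ratio -0.56). GLUD1, which encodes mitochondrial glutamate dehydrogenase, was at 55.7 and 35.9 FPKM (-0.62). FAM35A, which encodes a shieldin subunit of DNA break repair, stood at 15.1 and 9.77 FPKM (-0.58) and FAM25A at 6.94 and 5.09 (-0.38), while LDB3 stayed under 0.1 FPKM in both libraries. All 7 measured genes within 250 kb of SNCG other than MMRN2 had log2 ratios below 0, but only C10orf116 was past 2-fold on the FPKM + 1 scale. AGAP11 was 4.72-fold lower in FPKM. It passed the filter of 1 FPKM only through shNT, so it could only have been below 0, here and within 1 Mb. FAM22A, within 1 Mb, passed only through shRON and could only have been above 0. Within 1 Mb, 13 of 15 measured genes were below 0 and 7 were at least 1.5-fold lower, against 8.84% of all genes, while 0 were higher by that size, against 9.95%. The median of these 15 was -0.58, and it was -0.49 over the 12 that remain without C10orf116, LOC100133190 and AGAP11. The median over all genes was 0.04. Values mostly below 0 were not particular to this locus. Within 1 Mb of SNCB on chromosome 5, 28 of 30 measured genes were below 0 and 8 were at least 1.5-fold lower (median -0.38). Some of the 28, EIF4E1B among them, passed the filter only through shNT and could only have been below 0.

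**Figure D2:**
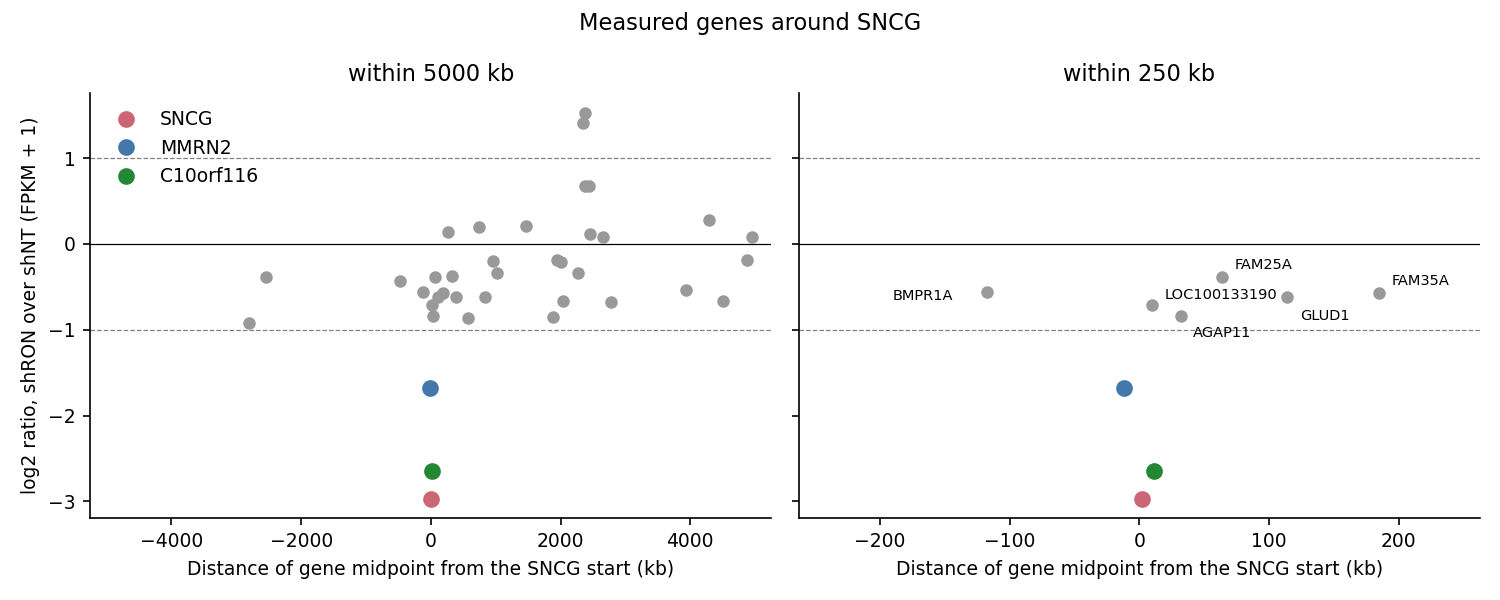
Log2 ratio (shRON over shNT, FPKM + 1) of measured genes against the distance of their midpoint from the SNCG start in kb, within 5000 kb (left) and 250 kb (right); each point is 1 gene and dashed lines mark 2-fold. SNCG, MMRN2 and C10orf116 lie below every other gene shown, and most of the remaining points within 1 Mb lie between 0 and -0.86.

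SNCG lies in a wider stretch of chromosome 10 where most values were below 0. Its edges, 80 and 110 Mb, were set with earlier results of these data known, so the contrast with the flanks is a description. Of 160 measured genes that start between them, 133 were below 0 (median -0.42). Before 80 Mb, 79 of 235 were below 0 (median 0.16), and after 110 Mb, 25 of 89 (median 0.18). The median of the 38 other genes within 5 Mb of SNCG was -0.38. Relative to it, SNCG was at -2.58 and MMRN2 at -1.30, both past 2-fold with the pseudocount of 1 FPKM. With a pseudocount of 5, MMRN2 was at -0.60, short of 2-fold, before any subtraction. The part of the wider stretch in these values was not tested.

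SNCB did not show the pattern of SNCG. The level of SNCB was 2.11 FPKM in the control library and 1.5 in the knockdown library, from an estimated 40 and 27 fragments. Its ratio of 0.712 had a counting interval of 0.420 to 1.19, which includes 1, so at this depth no difference was detectable (log2 ratio -0.31). That interval lies above the one of SNCG. SNCG was 54.0 times as abundant as SNCB in shNT and 9.14 times in shRON.

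SNCB lies on the minus strand at chr5:176047210-176057557 and has 2 transcripts in the tables. NM_003085.3 took 83.2% of its FPKM in shNT and 55.9% in shRON. The rest was assigned to NM_001001502.1, at 0.354 and 0.662 FPKM. With an estimated 32 and 14 fragments for the first transcript and 7 and 13 for the second, this division is imprecise. Like SNCG, SNCB has a head-to-head neighbour, EIF4E1B, a relative of the cap-binding translation factor eIF4E, whose start is 125 bases away. EIF4E1B had 1.35 FPKM against 0.184 in shRON, with a ratio of 0.136 (counting interval reaching 0.325) from an estimated 37 and 6 fragments and a log2 ratio of -0.99. That value was -2.35 with a pseudocount of 0.1 and -0.29 with 5. Like MMRN2, EIF4E1B passed the filter only through shNT, so it could only have been lower. The tetraspanin gene TSPAN17 was at 15.2 and 8.09 FPKM (-0.83), but at -0.04 when only its most abundant transcript was used. UIMC1 had a log2 ratio of -0.22, and on the other side GPRIN1 had -0.36, RNF44 -0.09 and FAF2 -0.52. All 8 other measured genes within 250 kb of SNCB were below 0. The 80 other measured genes within 5 Mb had a median of -0.29, and 67 of them were below 0. Relative to that median SNCB was at -0.02.

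The genes most like SNCG were found by the distance in the plane of log2(FPKM + 1) in both libraries, a likeness over 2 values only. The nearest was KCTD3 (119 FPKM in shNT, 10.3 in shRON, distance 0.38), followed by the translation elongation factor gene EEF1A2 (153 and 16.6, distance 0.50). C10orf116 was the third, at 0.59, ahead of the potassium channel gene KCNK2 (85.3 and 8.43, distance 0.77). CTSB, which encodes the lysosomal protease cathepsin B, was the fifth (83.2 and 23.4, distance 0.86). Of these 5, C10orf116 alone lies on chromosome 10. Nearest to MMRN2 were CLDN16 (2.73 and 0.197 FPKM), NPTXR (2.85 and 0.260), PHYHD1 (2.78 and 0.134), KCNK1 (2.82 and 0.304) and MMP28 (2.78 and 0.309), all on other chromosomes. Many low genes lie in that part of the plane, so these distances, from 0.06 to 0.12, say little.

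**Figure D3:**
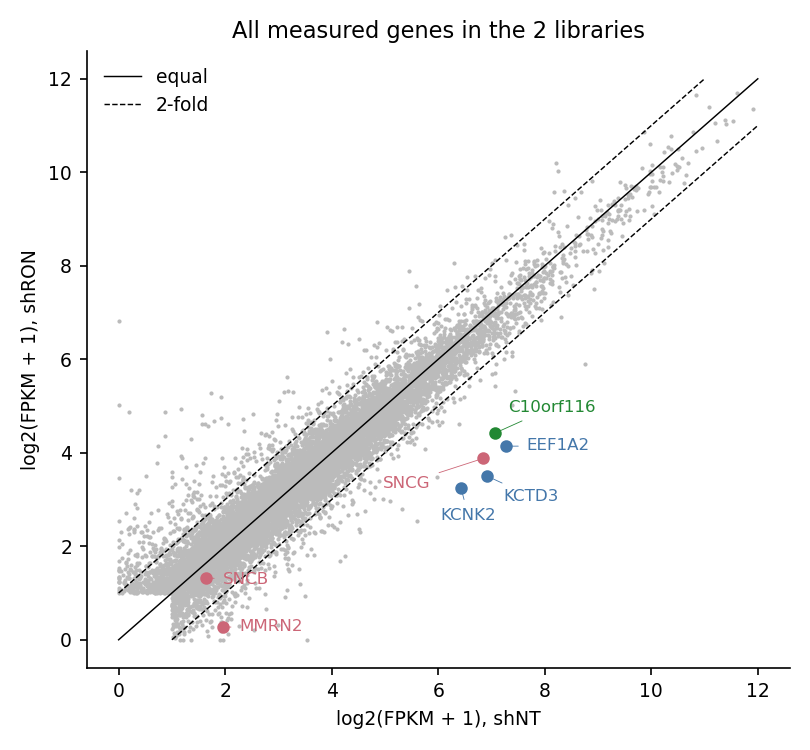
Log2(FPKM + 1) in shRON against shNT for 12484 measured genes (grey), with the 3 members in red, C10orf116 in green and KCTD3, EEF1A2 and KCNK2 in blue; the solid line marks equal levels and dashed lines 2-fold. SNCG, C10orf116, KCTD3, EEF1A2 and KCNK2 form a sparse group far below the main cloud, while SNCB lies within the cloud and MMRN2 at its lower edge.

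Genes of the vesicle fusion machinery with which synucleins associate had a median log2 ratio of -0.03, against 0.04 over all genes. Of 25 listed, 22 were measured and 0 were past 2-fold, against 2.17% lower and 3.32% higher among all genes. By 1.5-fold, 1 was lower and 0 were higher, against 8.84% and 9.95%. The lower count was 0 with a pseudocount or a filter of 5 FPKM and 2 when only the most abundant transcript of each gene was used. The 1 lower gene was RAB27A, a GTPase of secretory vesicles, with 4.62 FPKM against 2.29 in shRON, a log2 ratio of -0.77. VAMP8, a SNARE of secretory and late endosomal vesicles and the most abundant member, was at 120 and 138 FPKM. Among members best known from nerve terminals, SNAP25 and CPLX2 were listed at 0 in both libraries, while CPLX1 was at 4.77 and 3.54 FPKM. SYT1, the calcium sensor of synaptic vesicles, was at 3.30 and 2.94 FPKM, STX1A at 1.78 and 1.75, and SYP, which encodes synaptophysin, at 1.64 and 1.59.

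Among 22 genes reported as partners, kinases or turnover factors of synucleins, 18 were measured, with a median of -0.19. By 1.5-fold, 3 of the 18 were lower and 1 was higher, against 8.84% and 9.95% of all genes. With a pseudocount of 5 these counts were 1 and 0. The 3 lower genes were CTSB (log2 ratio -1.78, regional median -0.58), PLK2, a kinase that phosphorylates synucleins (85.2 and 55.4 FPKM, -0.61), and ESR1 (-0.61), the estrogen receptor whose signalling gamma-synuclein was reported to enhance. With its most abundant transcript only, ESR1 was at -0.52, short of 1.5-fold. MAPK8, which encodes the kinase JNK1, was the single one higher by that size, at 6.12 and 10.2 FPKM (0.65). BUB1B, the gene of the spindle checkpoint kinase BubR1 that binds gamma-synuclein, was at 10.4 and 6.93 FPKM (-0.52). The chaperone gene HSPA8 stood at 663 and 537 FPKM (-0.30), and CTSD, the gene of the lysosomal protease cathepsin D, at 678 and 889 (0.39).

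Most listed relatives and receptors of MMRN2 were at or near 0, while 2 ligands of the VEGF family were expressed. MMRN1 and EMILIN2 were listed at 0 in both libraries and EMILIN1 was at 0.0807 FPKM in each. EMILIN3 had 1.16 FPKM in shNT against 1.37 in shRON (log2 ratio 0.13). CD93, CLEC14A and KDR, which encodes the main endothelial VEGF receptor, were listed at 0 in both. Of 10 listed receptors and ligands, 2 were measured: VEGFB (57.6 and 61.8 FPKM, 0.10) and VEGFA (24.7 and 55.0, 1.13). VEGFA was past 2-fold, but was at 0.94, short of it, when only its most abundant transcript was used.

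Most marker genes of other cell types were low or listed at 0. Of 13 endothelial markers, 2 were measured, ENG (7.21 and 7.65 FPKM) and EGFL7 (10.5 and 5.55, log2 ratio -0.81). EGFL7 was at -1.52 with its most abundant transcript only and at -0.55, short of 1.5-fold, with a pseudocount of 5. PECAM1, VWF, KDR, TEK and TIE1 were listed at 0 in both libraries and CDH5 stayed under 0.02 FPKM. The summed level of the endothelial list was 19.0 FPKM in shNT and 14.3 in shRON. All 6 adipocyte markers were under 1 FPKM, with a sum of 0.321 and 0.641. Of 10 neuronal markers, 4 were measured and 5 were listed at 0 in both libraries, among them NEFL, NEFM and STMN2. PRPH, which encodes the neuronal intermediate filament peripherin, had 3.80 FPKM in shNT against 0.229 in shRON, a log2 ratio of -1.96, which was -0.75 with a pseudocount of 5 and -3.57 with 0.1. PRPH passed the filter only through shNT, so it could only have been lower. The other measured neuronal markers were ENO2 (-0.24), SYP (-0.03) and UCHL1 (0.29). The neuronal list, PRPH included, summed to 11.3 and 7.65 FPKM, and the fibroblast list of 6 genes to 4.14 and 5.86. Of those 6, COL1A1 was measured at 3.95 and 4.27 FPKM, and COL3A1, which encodes a fibrillar collagen, was higher in shRON, at 1.53 FPKM against 0.0103 (log2 ratio 1.32, and 0.38 with a pseudocount of 5). COL3A1 had an estimated 1 fragment in shNT and 123 in shRON, which puts its FPKM ratio at 149 (counting interval 26.3 to 5934). DCN, LUM and COL1A2 stayed under 0.2 FPKM in both libraries, and PDGFRB was listed at 0 in both. The part of these markers in the values of SNCG and MMRN2 was not tested.

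**Figure D4:**
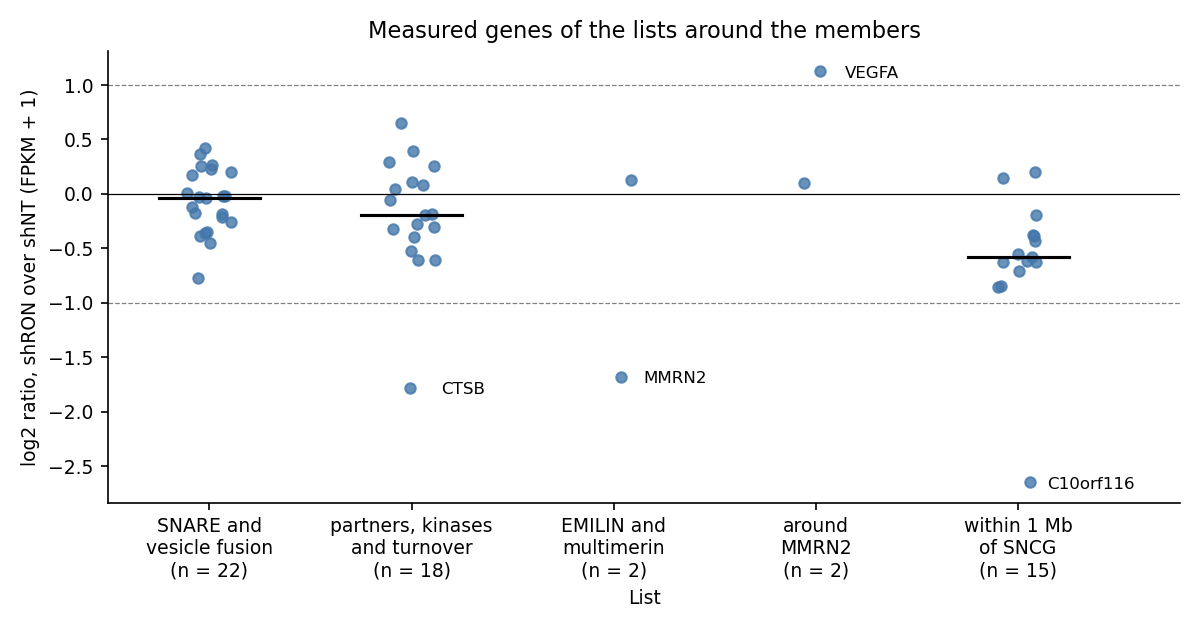
Log2 ratio (shRON over shNT, FPKM + 1) of each measured gene in 5 lists, with 1 point per gene, n below each list, a black bar for the median of lists with 5 or more genes and dashed lines at 2-fold. CTSB, MMRN2, VEGFA and C10orf116 lie past 2-fold, and of the lists with 5 or more genes, the genes within 1 Mb of SNCG have the lowest median, -0.58.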

How the data were processed

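RNA of 2 libraries, 1 per group, was measured. Per the file headers, the authors deposited FPKM for 37839 RefSeq transcripts in the Cufflinks layout, with coverage (read from its column name as mean read depth per base, a signal not divided by library size). The build is hg19 and DESeq is named without a role, per the submitters' processing notes. The sources used here name no aligner and no versions.

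FPKM was summed over transcripts per gene, genes under 1 FPKM in both libraries and small RNA genes were left out, and log2 ratios used a pseudocount of 1 FPKM. Fragments were estimated as coverage times length divided by the median bases of 1 read pair, 244 in shNT and 241 in shRON, taken from products of 150 to 325 bases in 280 and 275 long genes with 1 transcript. The share of low genes whose estimate was a whole number (tolerance 0.1) was 34.7% for shNT and 34.2% for shRON. Read counts could therefore not be recovered, and no test on counts was made. Starts in the tables count from 0 and were raised by 1. Promoter windows were read from GRCh37, strands and exons from GENCODE, and current symbols from the reference tables (24 of 24 genes within 1 Mb of SNCG matched). The counting intervals and log2 ratios were checked on simulated Poisson counts that took the estimated fragments as given. The fragment estimates themselves were not tested.

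The genes named are the 3 members, genes within 250 kb of SNCG, the 3 measured genes on each side of SNCB, list members past 1.5-fold and the 5 genes nearest to SNCG and MMRN2. One gene that the rule names is not reported here. Further list members are named as examples, chosen after their values were seen. The members, lists and rules were chosen with earlier results of these data known. Python 3.11.15, pandas 2.3.3, numpy 2.4.6 and scipy 1.17.1 were used.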

Additional observations from a re-analysis of the deposited data

How the results depend on the processing

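The direction of SNCG, MMRN2 and SNCB was below 0 in every alternative tried. Part of this was fixed in advance, since a change of pseudocount cannot alter a sign. SNCG and MMRN2 have 1 transcript each, so the setting with the most abundant transcript left both unchanged. SNCG ranged from -3.05 to -2.58, with -2.67 at a pseudocount of 5 and -2.58 after subtraction of the regional median. MMRN2 was at -3.28 with a pseudocount of 0.1, -0.60 with 5, -1.84 with values computed from coverage and -1.30 after subtraction of the regional median. SNCB ranged from -0.58 to -0.02. Ranks from the lowest value also moved with the pseudocount. With 0.1 FPKM, SNCG was 24th, C10orf116 42nd and MMRN2 17th. With 5 FPKM, SNCG was 5th, C10orf116 6th and MMRN2 438th. The genes at least 2-fold lower and higher numbered 490 and 696 when 0.1 FPKM was added and 84 and 145 when 5 was added. With a filter of 5 FPKM, 269 were higher. The median within 1 Mb of SNCG was -0.37 with a pseudocount of 5. The pseudocount sets by construction how strongly low genes are damped; the cause of the other shifts was not tested. Of 171 values for single named genes and lists, 22 moved beyond their counting interval or by over 1.5 times in count. No sign reversed, but list counts have no sign and a change of pseudocount cannot reverse one. Scaling by the median ratio corresponds to a shift of 0.01 on the log2 scale. No paired analysis was possible because each group has 1 library, and for the same reason no replicate could be left out. Depth limits MMRN2 in shRON (13 estimated fragments), EIF4E1B (6) and both SNCB transcripts.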

Other observations

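The locus of SNCG was not the only stretch of the genome where several neighbouring genes were at least 2-fold lower. After the values of SNCG were seen, all 271 such genes were searched for groups of at least 3 with gaps of at most 50 kb, and 5 loci were found. Besides MMRN2, SNCG and C10orf116 these were S100A16, S100A13 and S100A1 on chromosome 1, PDZD7, SFXN3 and KAZALD1 on chromosome 10, FGD3, SUSD3, C9orf89 and NINJ1 on chromosome 9, and KREMEN2, PAQR4, LOC100507378 and TNFRSF12A on chromosome 16. Of the 271 genes, 57 (21.0%) had an adjacent measured gene, overlapping or not, that was also at least 2-fold lower. The same share was not computed over all genes or for higher genes. Whether 21.0% or 5 loci is unusual can therefore not be said. Among 11493 adjacent pairs that do not overlap, both genes were lower by that size in 27, MMRN2 and SNCG being one of them. The locus with SFXN3 lies on chromosome 10 from 102777089 to 102825351, inside the same 80 to 110 Mb stretch as SNCG.

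Higher genes also stood inside the region of SNCG. Within 5 Mb, 2 of 37 measured genes other than the members were at least 2-fold higher, against 3.32% of all genes. By the same size 1 of the 37, C10orf116, was lower, against 2.17%. With so few genes, neither count can be told from those shares. The 2 higher genes were IFIT2 (log2 ratio 1.41) and IFIT3 (1.53), which are interferon-induced. They lie 2347 and 2376 kb from the SNCG start by their midpoints.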
